A study of Bos taurus with 5 samples.

Results

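BIRC5, CCNB2 and CDK1 are genes of the mitotic machinery, and their transcripts were followed in the follicular wall of bovine largest (F1) and second-largest (F2) follicles. The 3 genes were chosen by name, and each was represented by the probe that carries its bovine RefSeq mRNA accession. One probe matched each gene, so the set holds 3 of the 1364 probes with a RefSeq symbol and of 10163 single-spot probes in all. The study collected its follicles from 4 pregnant Japanese Black cows, whose ages the labels do not give. How many of these cows the 5 arrays cover is not given either. Stroma and theca externa had been cut away, so that the RNA was that of granulosa cells plus theca interna. RNA of 3 F1 and of 2 F2 was Cy3-labelled, with a one-color array for each follicle. Follicles were grouped by size rank alone, and the labels give neither the day of pregnancy nor the phase of the follicular wave. According to the methods some cows gave both follicles, so an F1 and an F2 of the same cow are present among the 5 arrays. The labels do not name these pairs, and all 5 follicles were treated as independent.

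CDK1 is the kinase that drives entry into mitosis, and it is active only while bound to a cyclin. CCNB2 encodes cyclin B2, one of its B-type partners, which is made towards the end of the cell cycle and destroyed when the chromosomes separate. BIRC5 encodes survivin, a small protein of the inhibitor of apoptosis family that sits with the kinase AURKB in the chromosomal passenger complex, where it corrects the attachment of chromosomes to the spindle. All of these transcripts are made mainly by dividing cells, and in a growing follicle the dividing cells are largely granulosa and theca cells.

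The probes are shown because every value below rests on a single 60-base probe per gene. They are written 5′ to 3′, and capitals mark the longest run that the probe shared with any other probe on the array, read on either strand. The BIRC5 probe is given whole, and of the other probes the 30 bases around that run are given, bases 15 to 44 for CCNB2 and bases 16 to 45 for CDK1.
BIRC5: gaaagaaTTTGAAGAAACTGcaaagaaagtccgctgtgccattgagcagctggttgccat
CCNB2: tgtatatagTCCTCTGGTCTATctcatgaa
CDK1: gcagataaTTGTACTTTTACTGttcatctc
The shared run was 13 bases for BIRC5, 13 bases for CCNB2 and 14 bases for CDK1, and in each case it lay on the opposite strand of the other probe. No further probe on the array thus repeated a long stretch of any of these sequences. Probes were compared with probes only, so this does not show whether other transcripts bind them. The G and C content was 45% in the BIRC5 probe, 40% in the CCNB2 probe and 35% in the CDK1 probe, against a median of 43.3% over all probes. Only 4.93% of probes had a lower content than that of CDK1.

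Signals are given relative to the median of the 100 GAPDH spots of the same array, the scale of the study's own normalization. This median was between 869 and 1411 units of the scanner's processed signal, and the 100 spots varied by 6.54% to 15.8% (coefficient of variation) within an array. The scanner software marked 5465 to 5855 probes of an array as well above background, its call for a measured spot. The test took the 5528 probes that were so in all F1 or in all F2, and 4861 of them were so on all 5 arrays. BIRC5, CCNB2 and CDK1 passed this call on all 5 arrays and were saturated on none. For these 3 genes the software's own error of a spot was 10.1% to 21.2% of its signal.

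None of the 3 genes passed the test for a difference between F1 and F2. Limma with Benjamini-Hochberg adjustment over the 5528 probes called 11.5% of all probes, 6.39% as higher in the F1 and 5.08% as higher in the F2, and 0 of these 3 in either direction. Of the 3, 0 had an unadjusted p under 0.05, which 29.2% of all tested probes had. F1 and F2 signals overlapped in all 3 genes, whereas they did not overlap in 49.2% of tested probes. In RNA of a whole follicular wall, fewer dividing cells and less of the transcript per cell cannot be told apart.

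BIRC5 had the widest difference of the 3 genes on the log2 scale. Its signal was 0.0774 in F1 replicate 1, 0.141 in replicate 2 and 0.258 in replicate 3, while F2 replicate 1 had 0.097 and F2 replicate 2 had 0.0715. F1 replicate 1 lay between the F2, and the other F1 lay above both. The F1 averaged 0.159 ± 0.0915 (SD, n = 3), the F2 0.0842 ± 0.0181 (SD, n = 2). On the log2 scale the F1 were 0.76 higher (95% interval -0.50 to 2.02, limma adjusted p = 0.368), which is 1.70-fold with an interval from 0.709-fold to 4.06-fold. This interval holds both no difference and a 4-fold one. Without F1 replicate 3 the log2 difference was 0.33, and without F1 replicate 1 it was 1.20, with limma adjusted p of 0.584 and 0.190.

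For CCNB2, F1 replicates 1 to 3 had signals of 0.229, 0.299 and 0.544, and the F2 replicates 0.339 and 0.178. One F2 exceeded F1 replicates 1 and 2, and the other F2 was below every F1. The F1 averaged 0.358 ± 0.166 (SD, n = 3) against 0.259 ± 0.114 (SD, n = 2) for the F2. The log2 difference was 0.44 (95% interval -0.71 to 1.59, limma adjusted p = 0.569). It was 0.09 without F1 replicate 3, and without F2 replicate 2 it turned to -0.023.

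CDK1 was the flattest of the 3 genes. The 3 F1 gave 0.102, 0.0841 and 0.179 and the pair of F2 0.0923 and 0.122, and both F2 fell inside the range of the F1. Means of 0.122 ± 0.0508 (SD, n = 3) and 0.107 ± 0.0208 (SD, n = 2) differed by 0.12 on the log2 scale (95% interval -0.84 to 1.08, limma adjusted p = 0.859). The sign turned to -0.088 when the 75th percentile of each array replaced GAPDH, and to -0.20 without F1 replicate 3. Over all tested probes the median log2 difference was 0.27 towards the F1 on the GAPDH scale and 0.063 on the 75th percentile scale, so BIRC5 and CCNB2 lay above this shift and CDK1 below it on both scales. A two-sided exact permutation test over the 10 possible splits of the follicles gave p = 0.4 for BIRC5, p = 0.5 for CCNB2 and p = 0.9 for CDK1, where the smallest p this design allows is 0.1.

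**Figure D1:**
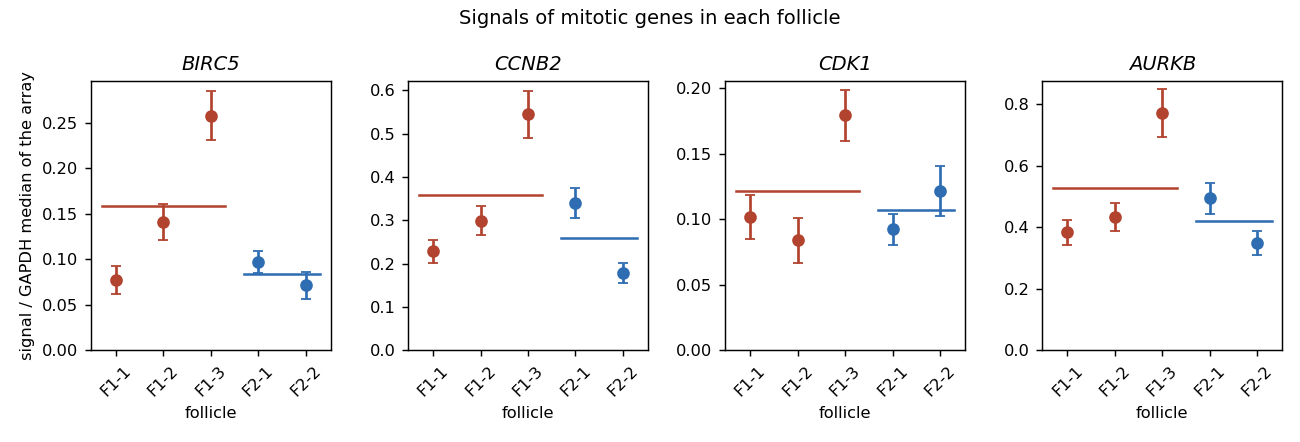
Signal relative to the GAPDH median of the array (vertical axis, linear from 0) of BIRC5, CCNB2, CDK1 and AURKB in each follicle, F1 in red and F2 in blue. Points are single arrays, bars are the scanner software's error of the spot and horizontal lines are group means. F1 replicate 3 is the highest point in each panel, at 0.258, 0.544, 0.179 and 0.771.

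On the GAPDH scale, the F1 varied more in these genes than in most others. Within the F1, the highest BIRC5 signal was 3.33 times the lowest, CCNB2 varied 2.37-fold and CDK1 2.14-fold. Without F1 replicate 3 the other F1 differed 1.83-fold, 1.30-fold and 1.21-fold. With normexp background correction the spread of all 3 F1 was 1.77-fold for BIRC5 and 1.20-fold for CDK1, and the median over all probes was not computed in that setting. On the GAPDH scale, the median over the 4861 probes measured on all 5 arrays was 1.56-fold. The spread of BIRC5 among the F1 exceeded that of 97.3% of these probes, the spread of CCNB2 that of 90.1% and the spread of CDK1 that of 84.8%. These shares are over probes of every signal level, not over probes of like signal. The lowest F1 signals of BIRC5 and CDK1 were only 4.26 and 4.04 times the lowest signal well above background on their arrays. Between the F2, BIRC5 differed 1.36-fold and CDK1 1.32-fold, close to the median of 1.31-fold. CCNB2 differed 1.91-fold between the F2, more than 88.2% of probes did.

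The same follicle stood at the top each time, a pattern that was noticed in the data and is given without a test. F1 replicate 3 had the highest signal of the 5 follicles for BIRC5, for CCNB2 and for CDK1. It was the highest follicle in only 244 of the 4861 probes, or 5.02%, whereas F1 replicate 1 was the highest in 36.3%. Compared with the mean log2 signal of the other 4 follicles, it was 1.47 higher for BIRC5, 1.10 for CCNB2 and 0.86 for CDK1, while the median probe was 0.17 lower in it. A lead at least as large was found in 1.09% of probes for BIRC5, 1.95% for CCNB2 and 3.35% for CDK1. The gap to the next follicle was 3.49 times the joint spot error for BIRC5, 3.15 times for CCNB2 and 2.10 times for CDK1. Below F1 replicate 3, neighbours in rank lay within 2 joint spot errors of each other in all 3 genes. This error is that of the spots and does not hold the variation between arrays or follicles.

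**Figure D2:**
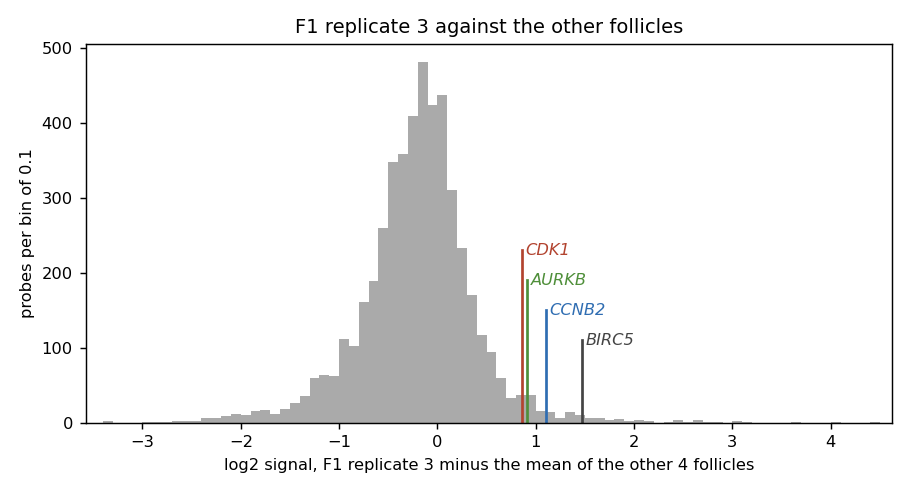
Histogram over the 4861 probes measured on all 5 arrays of the log2 signal in F1 replicate 3 minus the mean of the other 4 follicles (horizontal axis), in bins of 0.1 (vertical axis, probes per bin). Lines mark CDK1 at 0.86, AURKB at 0.91, CCNB2 at 1.10 and BIRC5 at 1.47, all in the upper tail.

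Values of the array itself are set beside this lead. F1 replicate 3 had the highest GAPDH median, 1411, so that division by GAPDH lowered its signals relative to those of the other arrays. Without any scaling, its lead was 1.94 for BIRC5, 1.57 for CCNB2 and 1.33 for CDK1 on the log2 scale. With the 75th percentile in place of GAPDH the leads were 1.68, 1.31 and 1.07, and F1 replicate 3 was then the highest follicle in 19.8% of probes. With normexp background correction they were 0.71, 0.83 and 0.31. F1 replicate 3 stayed the highest follicle for these 3 genes in every one of these settings. The CCNB2 spot of F1 replicate 3 carried a flag for an outlying local background, and the authors' deposited table is empty there. Leaving that spot out left the CCNB2 signals of the other F1 at 0.229 and 0.299.

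Of the other mitotic genes, AURKB was also highest in F1 replicate 3. AURKB encodes the kinase of the complex to which survivin belongs. Its signals were 0.384, 0.432 and 0.771 for the F1, then 0.494 and 0.348 for the F2, which is the order of CCNB2, although neighbours below F1 replicate 3 lay within 1 joint spot error of each other. The AURKB spot of F1 replicate 2 carried the background flag and is empty in the deposited table. F1 replicate 3 was 0.91 above the mean of the others on the log2 scale, a lead reached by 146 of the 4861 probes. AURKB did not pass the test for a difference between F1 and F2 (log2 difference 0.28, 95% interval -0.67 to 1.23, limma adjusted p = 0.669).

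SMC3, a subunit of the cohesin ring that holds sister chromatids together in every cell cycle, had another order. The F1 had 0.561, 0.769 and 0.423 and the F2 had 0.421 and 0.664, so that F1 replicate 3 was the lowest of the F1 (log2 difference 0.10, limma adjusted p = 0.875). SMC1A, another cohesin subunit, was not well above background on any array. These 6 genes are all that the arrays measured, by RefSeq accession, of a list of 98 genes of mitotic entry, spindle, checkpoint and division. Of the 5 that could be tested, 0 passed the test in either direction and 0 had an unadjusted p under 0.05 in limma, against 29.2% of all tested probes. Their median log2 difference was 0.28, against 0.27 for all tested probes.

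The profile over the 5 follicles was then compared with those of the other probes that had a RefSeq symbol and passed that call on all 5 arrays, 734 for each gene. Likeness was the root mean square difference of log2 signals after each gene had been centred on its own mean, so that a smaller value is a closer profile. It is given as a description over 5 follicles, since the probes share the same arrays. For BIRC5 the closest profile was that of CCNB2 (0.28), followed by AURKB (0.35) and PI4KA, a lipid kinase (0.35), where the median gene was at 0.85. For CCNB2 the closest were AURKB (0.18), BIRC5 (0.28) and LOC404103 (0.31), against a median of 0.77. CDK1 was farther off, at rank 24 for BIRC5 (0.56) and at rank 22 for CCNB2 (0.50).

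By this measure CDK1 stood somewhat apart. Its closest profiles were LTF, which encodes lactoferrin (0.24), FUT10, a fucosyltransferase gene (0.25), and HDGFL1 (0.26), with the median gene at 0.61. AURKB was at rank 10 of the 734 for CDK1, CCNB2 at rank 170 and BIRC5 at rank 296. Profiles were centred but not scaled, so these ranks also depend on how widely each gene varied. CDK1 shared with CCNB2 and BIRC5 the high value of F1 replicate 3 but not the order of the other follicles. Its next highest follicle was F2 replicate 2, which was the lowest for BIRC5, CCNB2 and AURKB. As its other 4 signals lay between 0.0841 and 0.122, with spot errors of 13.1% to 20.6%, neighbours in that order lay within 1 joint spot error of each other.

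Few genes of the neighbouring parts of the cell cycle could be matched to a probe by RefSeq accession. Of 75 genes of G1, S phase and DNA replication 2 had a RefSeq probe, of 27 cell cycle inhibitors and damage checkpoint genes 2, and of 27 genes of the inhibitor of apoptosis family, the caspases and their regulators 3. POLD2, an accessory subunit of DNA polymerase delta, reached 1.45, 1.17 and 1.48 in F1 walls against 0.775 and 0.868 in F2 walls. These signals did not overlap, as in 49.2% of all tested probes. It did not pass the test (log2 difference 0.73, limma adjusted p = 0.140). POLD1, the catalytic subunit of the same polymerase, was nearly level, though also without overlap. Its F1 signals were 0.204 to 0.209 and its F2 signals 0.214 and 0.230 (log2 difference -0.097, limma adjusted p = 0.821).

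Among the brakes of the cycle, BTG1, an antiproliferative gene, ranged from 5.94 to 6.88 over the F1, with the F2 at 2.88 and 4.55 (log2 difference 0.82, limma adjusted p = 0.142). BRCA1, a gene of DNA repair, was not well above background on any array.

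Of the apoptosis genes, BAX, which opens the mitochondrial outer membrane, had F1 signals of 0.488, 0.581 and 0.245 and F2 signals of 0.220 and 0.211 (log2 difference 0.93, limma adjusted p = 0.203). CASP4, an inflammatory caspase, was lower in the F1, at 0.0829 to 0.109 against 0.139 and 0.241 (log2 difference -0.97, limma adjusted p = 0.120). Its adjusted p was 0.0271 under 75th percentile scaling and 0.0260 under quantile normalization, so its call depended on the scaling. FAS, a death receptor gene, gave a log2 difference of -0.35 (limma adjusted p = 0.563). Over the 4 lists together, 11 of 13 genes with a probe could be tested, and limma called 0 of them at an adjusted p under 0.05, with 3 (POLD2, BTG1 and CASP4) at an unadjusted p under 0.05, where 29.2% of all tested probes were. F1 replicate 3 was the highest follicle in 1 of the 7 tested genes outside BIRC5, CCNB2, CDK1 and AURKB, namely POLD2.

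**Figure D3:**
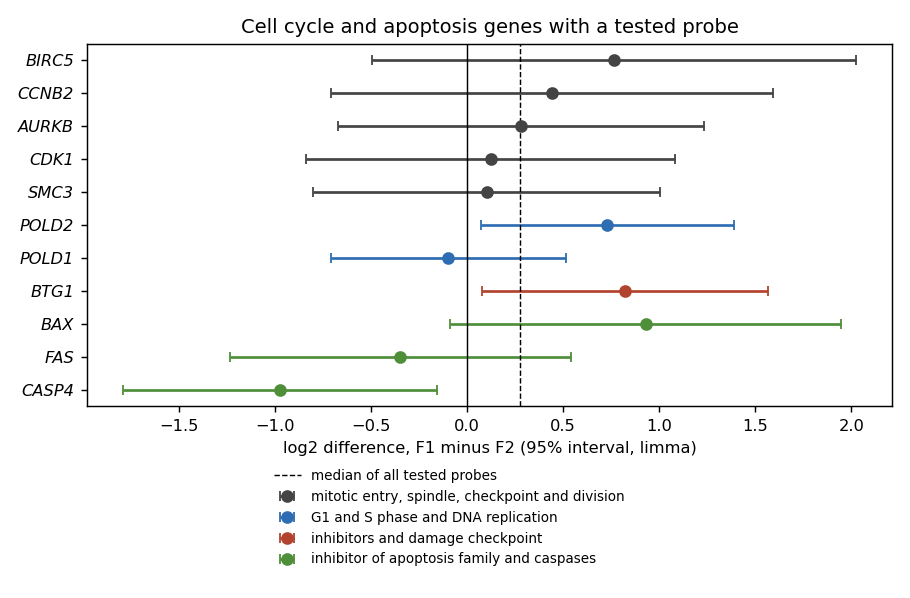
Log2 difference F1 minus F2 (horizontal axis) with its 95% limma interval for the 11 tested genes of the 4 lists, colored by list. The solid line is no difference, and the dashed line is the median of all tested probes, 0.27. All 5 mitotic genes have intervals across 0, and those of POLD2, BTG1 and CASP4, which are not adjusted for the number of probes, do not reach it.

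The tissue label was checked against cell type markers, whose signals differed between the groups. Granulosa markers were higher in the F1, with all 7 of those matched to a probe by RefSeq accession passing the test, against 11.5% of all tested probes. Among these, FSHR was well above background only in the F1. The summed signal of the 7 markers was 217 to 295 among the F1 but 14.5 and 19.5 for the F2. The F1 sums are lower bounds, since every F1 spot of INHA and INHBA was at the scanner ceiling, as were 2 F1 spots of FST and 1 of GJA1. AMH, CYP19A1 and FSHR, which never reached that ceiling, summed to 22.6, 9.51 and 19.1 in F1 replicates 1 to 3 and to 0.240 and 0.430 in the F2. Of 5 theca markers 3 passed the test as higher in the F1. LHCGR, which was among them, was well above background only in the F1, at 0.0329 to 0.0352. Its limma adjusted p was 0.289 with normexp. All 5 theca markers summed to 59.5 to 96.4 in F1 walls and to 30.4 and 19.6 in F2 walls. Most of the F1 sum was INSL3, which was saturated in 2 F1. The 4 that never reached the ceiling summed to 20.3, 18.3 and 25.0 in F1 replicates 1 to 3. In the F2 these 4 summed to 24.9 and 15.9, so the summed signals overlapped. Taken singly, none of the 4 overlapped between the groups, as in 49.2% of all tested probes. CYP11A1, CYP17A1 and LHCGR were higher in the F1 and STAR was lower. STAR of the same list had lower F1 signals, with a mean of 4.68 against 13.0 (log2 difference -1.48, limma adjusted p = 0.0593).

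For other cell types, the 4 leukocyte markers summed to 0.873 to 0.958 among the F1 and to 1.35 and 1.61 in the F2. Most of each sum was ITGB2, which did not pass the test (limma adjusted p = 0.217, but 0.0412 with quantile normalization). CD14 and CD3E, 2 of the 4, passed it as lower in the F1, but not with normexp (limma adjusted p of 0.188 and 0.746). CD3E was well above background only in the F2. With the floor at the lowest signal well above background, its limma adjusted p was 0.170. Of 6 endothelial markers 1 passed the test, against 11.5% of all tested probes. This was SELP, which was lower in the F1 (log2 difference -3.82, limma adjusted p = 0.00329). CDH5 and SELE were not well above background on any array. Of 5 oocyte markers, GDF9, ZP4 and NLRP5 were not well above background on any array, ZP2 was so on 2, and ZP3 was so on all 5 with signals of 0.175 to 0.305. The erythroid marker HBB was not well above background on any array. Within the F1, replicate 3 was the highest follicle for AMH, at 5.91 against 3.53 and 3.18, but not for CYP19A1 or FSHR. Of the theca markers, it was the highest for CYP11A1, at 16.5 against 13.0 and 12.5. It was so too for CYP17A1, at 3.11 against 1.68 and 2.56, and narrowly for LHCGR, but not for STAR or for INSL3, which was saturated in it. The part of cell makeup in the high mitotic signals of F1 replicate 3 was not tested.

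**Figure D4:**
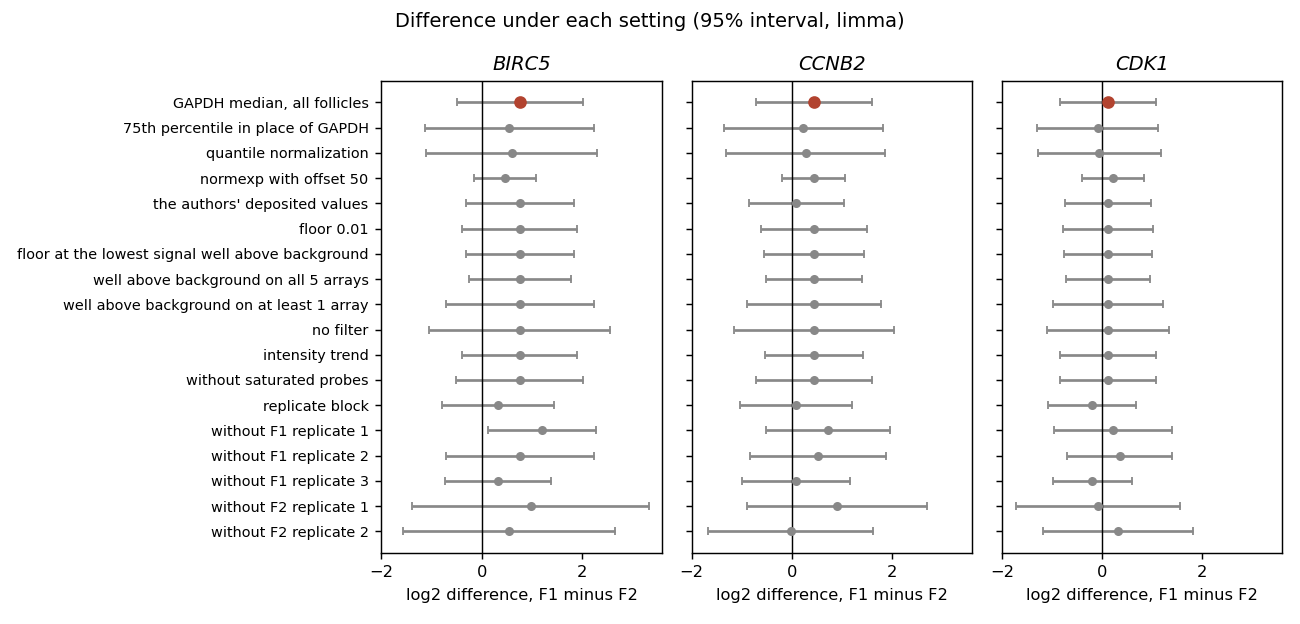
Log2 difference F1 minus F2 (horizontal axis) with its 95% limma interval for BIRC5, CCNB2 and CDK1 under each setting (vertical axis), the first row in red being the GAPDH scale with all follicles. The intervals hold 0 in every row except 1, BIRC5 without F1 replicate 1, and no row of any gene has an adjusted p under 0.05.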

How the data were processed

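The authors labelled follicular RNA with Cy3, scanned 1 array per follicle and extracted spots with Agilent Feature Extraction (9.5.3.1 in the file headers). For each spot, the files deposited by the authors hold a signal intensity after background subtraction and detrending, its error, raw mean and local background intensities, and flags. A table deposited by the authors gives each value as the ratio of that intensity to the GAPDH median, and all its values matched the scanner files within 0.001. The files name no genome build.

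Here, each processed signal was taken relative to the GAPDH median of its array, raised to a floor of 0.001 where lower, and put on the log2 scale. Control and GAPDH spots were left out, as was 1 spot marked as an outlier by the scanner software. Saturated spots stayed in. Limma 3.58.1 (lmFit, eBayes; R 4.3.3) compared F1 with F2 over the probes measured above background throughout F1 or throughout F2, and Benjamini-Hochberg adjustment ran over all of these at a threshold of 0.05. The fit was checked on simulated data. Descriptions were computed in Python 3.11.15. Probes were named by RefSeq accession from a table of bovine genes, which matched 1364 of 1415. Genes named were BIRC5, CCNB2 and CDK1, all genes of the lists with a probe, and the 3 closest profiles of each. A gene of the inhibitor list is not reported here and was left out of the counts. These genes, the lists and the tests were chosen with earlier results of these data known. The follicles numbered alike are not known to be paired, and the correlation of their deviations from the group means was 0.039 for replicate 1 and 0.13 for replicate 2. Alternatives were other scalings, background correction, floors and filters, the deposited values, a replicate block, an intensity trend and leaving out each follicle. With 5 arrays, precision is limited by their number.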

Additional observations from a re-analysis of the deposited data

How the results depend on the processing

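No alternative brought BIRC5, CCNB2 or CDK1 to an adjusted p under 0.05. The CDK1 difference changed sign with the 75th percentile (-0.088), quantile normalization (-0.054) and the replicate block (-0.20), a block whose numbers are not known to pair follicles and which gave 0.33 for BIRC5 and 0.09 for CCNB2. With a follicle left out the difference ranged from -0.20 to 0.35 for CDK1, from -0.023 to 0.91 for CCNB2 and from 0.33 to 1.20 for BIRC5. CDK1 was -0.077 without F2 replicate 1, where the lone F2 is assumed to vary as the F1 do. Calls over all probes, 634 with all follicles, were 346 when 1 array well above background sufficed, 214 with no filter and 160 to 550 with a follicle left out, 160 without F2 replicate 1, 200 without F2 replicate 2 and 344 without F1 replicate 1, and other settings gave 578 to 900. Calls higher in F1 and in F2 were 353 and 281, but 404 and 409 with the 75th percentile and 238 and 312 without F1 replicate 2. The replicate block gave 578. The lists gained 1 call, CASP4, under either of the 75th percentile and quantile scalings. The spread between the F2 was 1.74-fold, 1.86-fold and 1.05-fold for BIRC5 with the 75th percentile, quantile normalization and normexp, and 1.03-fold and 1.02-fold for CDK1 with the first 2. With normexp the spread among the F1 was 1.77-fold for BIRC5 and 1.20-fold for CDK1, and that of CCNB2 in the deposited values, where 1 follicle is empty, was 1.31-fold. The lead of F1 replicate 3, examined in settings chosen after seeing the data, was 0.71 for BIRC5 and 0.31 for CDK1 with normexp, 1.11 for CDK1 with quantile normalization, and 1.94, 1.57 and 1.33 for BIRC5, CCNB2 and CDK1 without scaling. The cause of these changes was not tested.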
